A study of Macaca mulatta with 64 samples.

Results

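This report describes 407 transcription start positions that CAGE-seq listed in hippocampal CA1 and nowhere else among 8 regions of the rhesus macaque brain. CAGE-seq (sequencing after cap analysis of gene expression) reads the capped 5′ end of RNA, so each listed position is a candidate start of transcription inside or near an annotated gene. The positions were chosen by their measured values: a position was taken when its level was above 0 in at least 3 of the 8 CA1 libraries and 0 in all 56 libraries of the other regions. They made up 407 of the 160389 positions in the table and lay in 375 of its 13269 genes. Since absence from the other regions and presence in CA1 were the rule, neither is tested below.

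The samples were postmortem tissue of rhesus macaques aged 1, 4, 10 and 20 yr, of both sexes, for which no treatment was described. Each library stood for an age- and sex-matched pair of animals. The regions were CA1, the dentate gyrus (DG), the cerebellar cortex (CB) and the prefrontal (PFC), posterior cingulate (PCC), temporal (TC), parietal (PC) and occipital (OC) cortex. There were 64 libraries, 1 for each region, age and sex, and they are named here by age and sex (20F is the library of the females aged 20 yr). With 1 library per combination, spread among the 8 CA1 libraries mixes age, sex, animals and technique. Levels are in TPM, here the tags at a position scaled to the size of the library and not corrected for gene length.

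In the adult hippocampus CA1 is the output field of the classical circuit, in which pyramidal neurons receive the Schaffer collaterals of CA3. Oligodendrocytes make the myelin that wraps axons in and around the hippocampus. Most mammalian genes start transcription within a cluster of neighbouring nucleotides, and many have further start clusters that are used in some tissues and not in others. In neurons and glia such alternative starts change the first exon of a transcript, and with it the 5′ untranslated region or the N terminus of the protein. CAGE tags can also fall inside exons, far from any annotated start.

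The CA1 libraries listed from 7001 to 23670 positions, with the highest number in 20F and a median of 11309, while the medians of the other regions ran from 1720.5 in PCC to 5220.5 in TC. The libraries overlapped, since PFC 1M listed 10765 positions, more than CA1 10F, 10M and 20M. No value above 0 was under 1 TPM, and the smallest value of a library stood for 4 to 7 tags in CA1 and for 2 tags or more elsewhere, so a position with fewer tags was at 0. The tissue label could not be checked well against markers. Of the CA1 pyramidal markers 8 had a position, CCN3 and GPR161 of these were at 0 in all CA1 libraries, and the summed level of the 8 ran from 0 to 69.06 TPM in CA1 and from 0 to 60.5 TPM in DG. Granule cell markers of the dentate gyrus summed to 25.11 to 259.33 TPM in CA1 (DSP was at 0) and to 25.58 to 681.32 TPM in DG, where 7 of the 11, PROX1 among them, were at 0. The groups overlapped for both lists.

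The same rule applied to each other region gave far fewer positions. CB had 29, PFC 22, TC 16, OC 14, PC 12, DG 3 and PCC 1. Of the positions listed in at least 3 libraries of a region, the region-only share was 9.53% in CA1, 2.06% in CB, 1.08% in PFC and between 0.159% and 0.689% in the other 5 regions. Since the number of listed positions differed among regions, the rule was also applied to the 500 highest positions of each library. All lower values were set to 0 there, so a position counted for a region may be listed in another region at a lower rank. CA1 then had 32 of 440 positions (7.27%), CB 7 (2.53%), OC 5 (1.41%) and PCC 0 of 172. When positions of a gene less than 20 nt apart were joined, CA1 had 560 of 8098 joined positions (6.92%), CB 23 (0.94%) and the other regions 8 or fewer. CA1 led in all 3 counts, which are a description of the rule's outcome and carry no test.

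**Figure D1:**
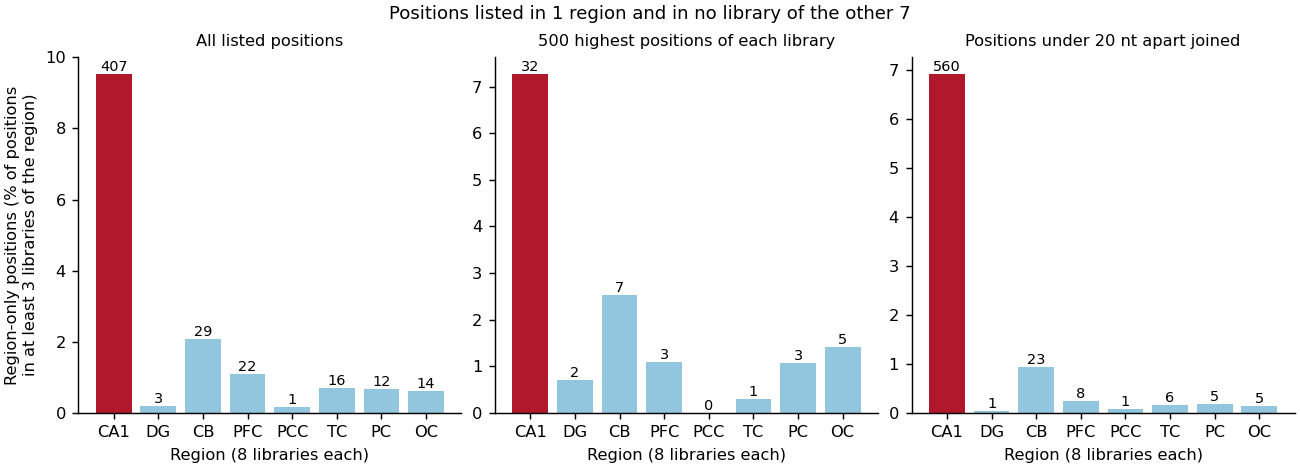
Share of positions listed in at least 3 libraries of a region that were listed in no other region (y axis, percent) for the 8 regions (x axis), with the number of region-only positions above each bar. CA1 had 9.53% of all listed positions, 7.27% when each library was limited to its 500 highest, and 6.92% after neighbouring positions were joined.

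Most CA1-only positions were listed in few of the CA1 libraries. There were 335 (82.3%) in exactly 3 libraries, 50 in 4, 14 in 5, 6 in 6, 2 in 7 and none in all 8. By contrast, 136 of the 3863 other CA1 positions (listed in at least 3 CA1 libraries and in another region) were in all 8. The median level where listed was 10.19 TPM for CA1-only positions and 22.65 TPM for the others, and the tags summed over the CA1 libraries ran from 28 to 4551 with a median of 236. The table also held 2527 positions in 2 CA1 libraries and no other, and 50765 in a single CA1 library and no other.

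At the threshold the values inside and outside were as follows, with no test. The members with the lowest mean level over the 8 CA1 libraries were positions of FN3K (0.6 TPM; 1.31, 1.64 and 1.85 TPM in 3 libraries), GPR37L1 (0.694 TPM) and VAT1L (0.739 TPM). Just outside, with 2 CA1 libraries and no other, lay positions of CLU at 1194.77 TPM in 1M and 196.55 TPM in 4F, of GPX1 at 349.71 and 239.58 TPM and of SF3B6 at 263.63 and 240.58 TPM. A further 412 positions were in at least 3 CA1 libraries and in exactly 1 library of another region, which was a TC library for 109 of them and a PFC library for 86. TTC9B is an example, with 71.49 to 203.06 TPM in 4 CA1 libraries and 1.3 TPM in OC 1F. DAP had 57.49 to 178.9 TPM in 5 CA1 libraries and 41.83 TPM in PFC 1M, and BMPER 54.51 to 197.18 TPM in 3 and 168.75 TPM in OC 1F.

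The 10 positions in the most CA1 libraries began with ENSMMUG00000001673, a gene without a symbol on chromosome 15 (minus strand, position 1055562, 142 nt inside the gene; all coordinates are those of MMUL 1.0). Its levels were 0 TPM in 1F, 165.1 in 1M, 51.02 in 4F, 104.96 in 4M, 3.64 in 10F, 136.43 in 10M, 13.05 in 20F and 75.94 in 20M, a mean of 68.8 ± 62.8 TPM (SD, n = 8). The 4 male libraries, from 75.94 to 165.1 TPM, were all above the 4 female libraries. The position was among those chosen by level and library count, and the split by sex was seen afterwards and not tested. The second, ENSMMUG00000003761 on chromosome 7 (position 118435572, 13 nt inside), was at 72.37 TPM in 1F, 119.59 in 1M, 31.1 in 4F, 82.52 in 4M, 21.1 in 10F, 0 in 10M, 40.93 in 20F and 3.51 in 20M. It was highest in 1M, and the ages overlapped.

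CNP was among the 8 positions in at least 6 CA1 libraries, and the other 6 positions of the myelin list were in 3 or 4. CNP, a cyclic nucleotide phosphodiesterase of myelin-forming cells, had a CA1-only position 901 nt inside the gene (chromosome 16, position 52074399, plus strand). It was at 21.66 TPM in 1F, 118.61 in 1M, 2.1 in 4F, 37.09 in 4M, 20.74 in 10F, 12.88 in 20F and 0 in 10M and 20M, so 1M held most of its signal. BCAS1, a protein of newly myelinating oligodendrocytes, had 4 CA1-only positions, more than any other gene. The most widely listed lay 27278 nt inside the gene (chromosome 10, position 10447884) at 18.71 TPM in 1F, 55.35 in 1M, 68.12 in 4F, 34.12 in 4M, 1.27 in 10F, 15 in 20M and 0 in 10M and 20F. All 4 libraries at 1 and 4 yr were above all 4 at 10 and 20 yr. That split, too, was seen after the position had been chosen and is given without a test. Another position of BCAS1, 27335 nt inside, was at 31.21 TPM in 1M, 34.07 in 4F and 61.75 in 20F and at 0 in the others, so it did not follow the same split.

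Among neuronal genes, CTNND2, the adhesion protein delta-catenin, had a position 351154 nt inside its 759347 nt gene (chromosome 6, position 11317627) at 1.8 TPM in 1F, 12.49 in 1M, 11.01 in 4F, 19.65 in 4M, 18.02 in 10M, 21.38 in 20M and 0 in 10F and 20F. UCHL1, a deubiquitinating enzyme abundant in neurons, had one 33 nt upstream of its annotated start (chromosome 5, position 36300163) at 69.25 TPM in 1F, 54.05 in 1M, 82.7 in 4M, 13.65 in 10F, 41.1 in 10M and 0 in 4F, 20F and 20M. Both 20 yr libraries were at 0 for UCHL1, whereas CTNND2 had its highest value in 20M. RSPH1, a radial spoke protein of motile cilia, was at 2.55 to 26.11 TPM in 6 libraries at a position 130 nt inside the gene, and RNF114, a ubiquitin ligase, was at 2.18 to 69.81 TPM in 6 libraries exactly at its annotated start. Of genes without a symbol, ENSMMUG00000016673 was at 1.94 to 110.35 TPM in 6 libraries and ENSMMUG00000018919 at 6.07 to 114.6 TPM in 5.

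Ordered by mean level instead, the first was a position of MYO10, an unconventional myosin of filopodia, 178169 nt inside the gene (chromosome 6, position 16897257). It was at 352.91 TPM in 4M, 390.56 in 10M, 99.84 in 20F and 0 in the other 5 libraries, a mean of 105 ± 168 TPM (SD, n = 8). KLK5, a kallikrein serine protease, had one 474 nt upstream of the start at 269.59 TPM in 1M, 7.86 in 4F, 137.72 in 10F, 94.4 in 10M and 0 in the other 4. MOBP, a structural protein of compact myelin, was at 94.34 TPM in 4F, 152.61 in 4M, 34.91 in 10M and 0 in the other 5, 75 nt inside the gene. GPM6B, a membrane glycoprotein of the proteolipid family, was at 68.75 TPM in 1F, 157.21 in 1M and 52.3 in 4M, 89 nt upstream, and at 0 at 10 and 20 yr. ENSMMUG00000003135, 83 nt upstream, was at 105.93 TPM in 1M, 118.98 in 4F, 43.58 in 4M and 0 in the other 5. The SD over the 8 CA1 libraries exceeded the mean for each of these 5 positions.

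**Figure D2:**
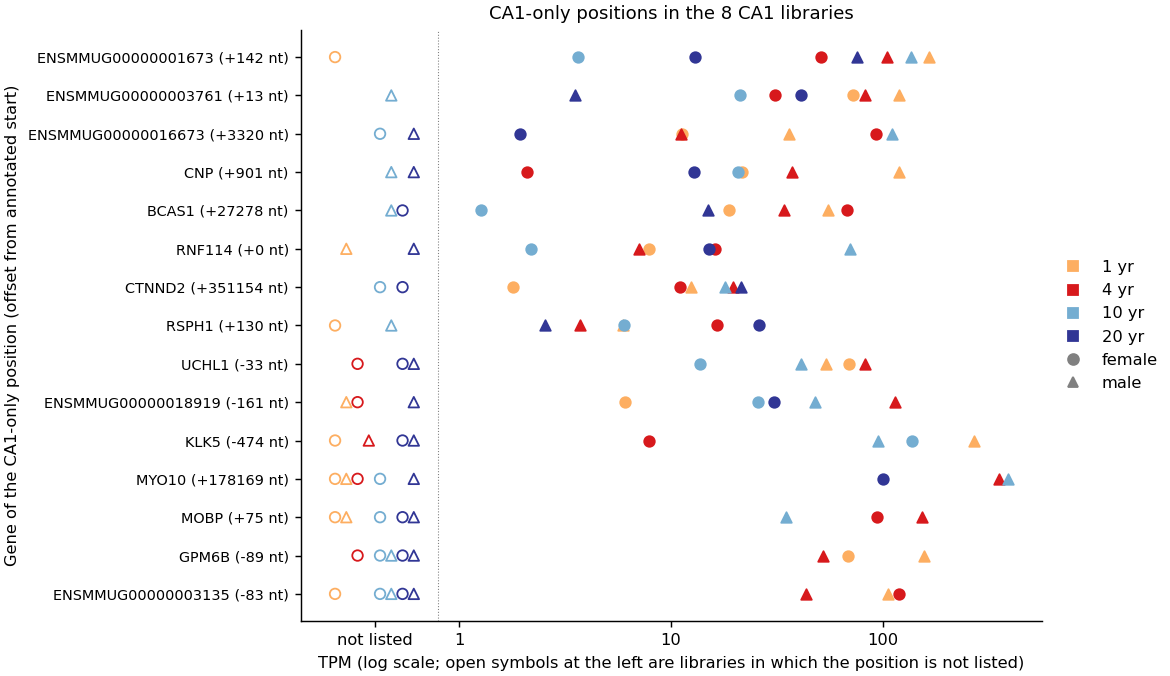
TPM (x axis, log scale) of the 15 CA1-only positions in the most CA1 libraries or with the highest mean level, 1 symbol per CA1 library, coloured by age and shaped by sex, with open symbols for libraries in which the position was not listed. The positions of ENSMMUG00000001673 and ENSMMUG00000003761 were listed in 7 libraries, and that of MYO10, the highest at 390.56 TPM, in 3.

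Most CA1-only positions had close neighbours that were listed elsewhere. The nearest position of the same gene listed in another region was less than 20 nt away for 262 of the 407 (64.4%), 20 to 99 nt away for 95, at least 100 but under 500 nt away for 17 and 500 nt or more away for 25, and 8 lay in genes without a position in any other region. The median distance was 12 nt, and 105 (25.8%) had a neighbour at most 5 nt away. MOBP had one at 1 nt, KLK5 at 2 nt and ENSMMUG00000003761 at 3 nt, each listed in 1 or 2 libraries of other regions. For 256 positions that nearest neighbour was listed in a single library of another region. Among the other CA1 positions, a different position of the same gene listed in another region lay under 20 nt away for 3038 of 3863 (78.6%).

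Neighbouring tags less than 20 nt apart had been clustered sample by sample, so a start cluster can appear under a different nucleotide in another library. Joined over all libraries, 272 of the 407 positions (66.8%) fell into a group that was also listed outside CA1, and 135 stayed in groups listed in CA1 alone. Counted per position, the groups of these 272 were listed in a median of 4 and up to 47 of the 56 libraries of the other regions. Each of the 272 CA1-only nucleotides held a median of 59.9% of its group's CA1 signal (range 1.97% to 100%). The group of ENSMMUG00000001673 was listed in all 8 CA1 libraries, with a mean of 80.0 ± 56.5 TPM (SD, n = 8), and in no other region. The BCAS1 group around position 10447884 and the CTNND2 group were each in 7 CA1 libraries, and the group of the second BCAS1 position was in 6. Joined groups listed in CA1 alone numbered 560, and 427 of them held none of the 407 positions.

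**Figure D3:**
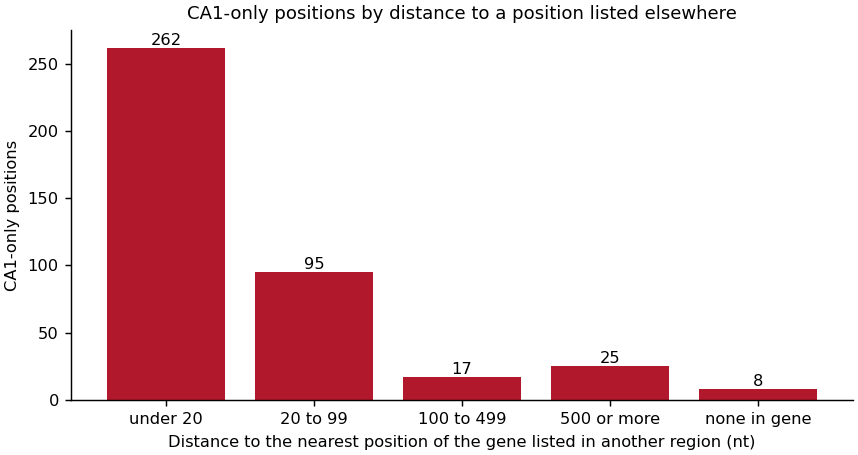
Number of CA1-only positions (y axis) by distance in nt to the nearest position of the same gene listed in another region (x axis). For 262 of 407 the distance was under 20 nt, and 8 lay in genes with no position elsewhere.

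The 33 positions at least 500 nt from any other-region position of their gene, or without one, are named here after their values were seen. RIPPLY1 was in 5 CA1 libraries with a mean of 1.61 TPM, exactly at its annotated start, in a gene with no position in another region. NUFIP2, an RNA-binding protein, had 2 such positions, 12 nt inside and 21 nt upstream of its start, with means of 9.77 and 6.82 TPM. ATG5, needed for autophagosome formation, was at a mean of 10.9 TPM at its annotated start, and TYMS, thymidylate synthase, at 4.64 TPM 45 nt inside the gene. MIA3 and MRPS27 were listed at their annotated starts with the nearest position of another region 21896 and 92774 nt downstream. ABR, CPEB3, TNIK and NCAM1 had interior positions of this kind at means of 7.82, 3.57, 2.00 and 2.80 TPM.

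The next comparison asked where in the gene the CA1-only positions lay. Over the 407, 109 (26.8%) were upstream of the annotated start, 79 lay 0 to 100 nt inside, 51 lay over 100 and up to 500 nt inside, 143 in the interior and 25 (6.14%) in the final 10% of the gene. Per library, CA1-only positions were less often in the final 10% than other CA1 positions. The means were 5.67% ± 1.43 against 12.4% ± 1.69 (SD, n = 8 libraries). The CA1-only percent was lower in 8 of 8 libraries (exact sign-flip test, two-sided, p = 0.0078125, the smallest that 8 libraries allow). All 8 libraries drew on the same 407 positions, 25 of them in the final 10%, so they are not independent draws of positions. The p-values for place in the gene therefore measure the spread between libraries and leave out that between positions. Within 500 nt of the start lay 58.8% ± 2.13 of CA1-only against 53.1% ± 4.79 of other CA1 positions, higher in 6 of 8 libraries (exact sign-flip test, two-sided, p = 0.03125). The second difference rested on 20F, where the values were 62.4% and 45.0%: without that library, with the members chosen anew, the mean difference fell from 5.75 to 0.468 percentage points (exact sign-flip test, p = 0.59375).

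Both differences in place turned round when neighbouring positions were joined. Joined groups listed in CA1 alone were 11.7 percentage points less often within 500 nt of the start than other CA1 groups (difference -11.7, exact sign-flip test over 8 libraries, p = 0.0078125) and 2.12 points more often in the final 10% (p = 0.0234375, exact). Among positions listed in exactly 3 CA1 libraries the final 10% still held fewer CA1-only positions (difference -6.13 points, exact p = 0.0078125), and the difference near the start was 4.74 points (exact p = 0.180). Whether CA1-only positions lay nearer the start than other CA1 positions therefore depended on how a position was defined.

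**Figure D4:**
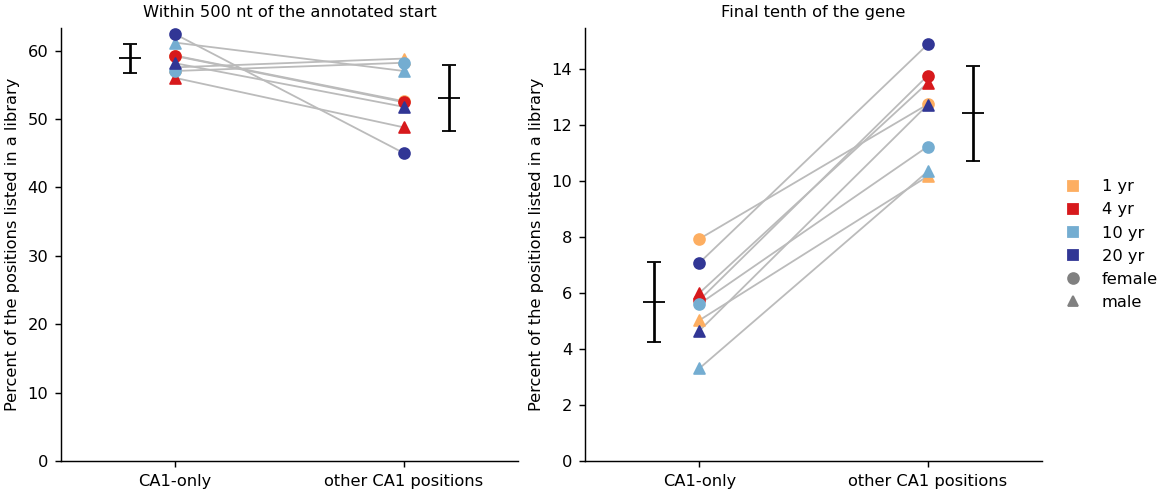
Percent of the positions listed in a CA1 library (y axis) that lay within 500 nt of the annotated start (left) or in the final 10% of the gene (right), for CA1-only and other CA1 positions, with lines joining the values of a library and black bars for the mean ± SD of 8 libraries. The final 10% held 3.31% to 7.94% of CA1-only and 10.2% to 14.9% of other CA1 positions.

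Against region-only positions of other regions, the percent within 500 nt of the start was compared over libraries of the same age and sex (7 comparisons, exact sign-flip tests, adjusted together by Benjamini-Hochberg). In TC the mean was 30.1% ± 14.2 against 58.8% ± 2.13 in CA1, lower in 8 of 8 pairs (exact p = 0.0078125, adjusted 0.0546875). In CB it was 43.5% ± 21.1 (exact p = 0.0859375, adjusted 0.301), in PFC 68.4% ± 18.4 (adjusted 0.4375, exact test) and in OC 67.3% ± 22.0 (adjusted 0.470, exact test). No region passed the adjusted threshold of 0.05. With neighbouring positions joined the direction turned round for TC (CA1 minus TC -18.1 points), DG, PFC, PCC and OC. The other regions had 1 to 29 region-only positions in all, and 1 to 23 after joining. The libraries of a region shared them, so the pairs are not independent draws of positions. PCC, with 3 usable pairs, could not reach an exact p below 0.25.

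The CA1-only positions were spread over many kinds of gene, and oligodendrocyte genes held more of them than the other lists examined. Of 8 oligodendrocyte and myelin genes with any position in the table, 4 (CNP, MOG, MBP and MOBP) had a CA1-only position, 7 positions in all, against 375 of 13269 genes (2.83%) overall. No gene of the astrocyte list (10 with a position), the GABAergic list (11) or the CA1 pyramidal list (8) had one. Genes with more listed positions had more chances to be chosen: genes with a CA1-only position had a median of 29 positions, and all genes a median of 6. The counts carry no test.

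Within the myelin group the levels varied. The 2 CNP positions lay 901 and 820 nt inside the gene, the second at 11.35 TPM in 4F, 12.55 in 10F, 3.36 in 20F and 10.21 in 20M. MOG, a glycoprotein of the outer myelin surface, had one position 65 nt inside at 8.54 TPM in 1F, 49.3 in 10F and 29.27 in 20F, and another in the final 10% at 1.81 to 5.74 TPM in 1F, 4M and 20M. The MOG position near the start was listed in female libraries alone, as 1 of 26 such positions among the 407, which was not tested. MBP, the main basic protein of myelin, had 2 positions in its final 10% with means of 1.98 and 1.01 TPM, low beside the gene's other positions, which summed to 4643 to 8022 TPM in CA1. PDGFRA, the growth factor receptor of oligodendrocyte precursors, was at 1.49 to 4.54 TPM in 3 libraries, 50 nt upstream.

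Synaptic and signalling genes followed. SYP, the synaptic vesicle protein synaptophysin, had 3 interior positions, the highest at 34.14 TPM in 1F, 19.74 in 4F, 64.72 in 4M and 0 in the other 5. STX1A, the syntaxin of vesicle fusion, was at 1.64 TPM in 1F, 51.85 in 10F and 4.06 in 20F. GRIA1, an AMPA receptor subunit, had a position 187 nt upstream of its start in 5 libraries, all low, from 1.48 TPM in 4M to 4.73 TPM in 10F, and at 0 in 1F, 1M and 4F. CAMK2B, a subunit of the calcium- and calmodulin-dependent kinase, had one in its final 10% at 1.41 to 12.14 TPM. Synaptic vesicle genes with a CA1-only position were 2 of 16, and postsynaptic scaffold and kinase genes 1 of 25.

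Of the remaining lists, RNA-binding and splicing genes had 3 of 34 genes (SRRM2 with 2 positions, RBM25 and HNRNPA2B1), nuclear-encoded respiratory chain genes 3 of 37 (ATP5F1B and NDUFB2 among them) and genes of immature neurons 2 of 7 (NNAT among them). Microtubule and axon proteins had 1 of 21, MAP1A, at 19.39 TPM in 4F, 6.3 in 4M and 139.72 in 10F. Heat shock genes had 1 of 12, the small heat shock protein CRYAB, at 38.28 TPM in 1M, 89.44 in 4F, 18.16 in 4M and 4.15 in 20M. Of microglial genes 1 of 6 had one, CSF1R, the receptor that these cells need to survive, 46 nt inside the gene at 17.23 TPM in 1F, 14.83 in 10M and 4.24 in 20F. SCN3A, a sodium channel gene of young neurons, was at 7.22 TPM in 1F, 5.75 in 1M and 9.43 in 4F and at 0 in the other 5 libraries, and it was 1 of 22 channel genes. CALB1, calbindin, was listed for both the dentate and the cerebellar list, at 2.12 to 7.33 TPM in 1F, 4F and 20F. FOLR1, a folate receptor of the choroid plexus, was 1 of 4 genes on its list, at 4.32 to 42.98 TPM. Lists of endothelial cells (6 genes), immediate-early genes (7) and blood (1) had none.

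Beyond the listed genes, several with a large number of positions had more than 1 CA1-only position. TAOK2, a protein kinase, had 3 of its 410 positions among the 407, 14028 to 14161 nt inside an annotated gene of 1595943 nt. ENSMMUG00000017617 and ENSMMUG00000005470 also had 3, and GUK1, guanylate kinase, and PRRC2C had 2. Across all 375 genes, 26 (6.93%) had more than 1.

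A further question was whether these genes were also higher in CA1 at their other positions. The 504 positions that met the rule in CA1 or in another region were therefore removed, the rest were summed per gene, and genes of at least 1 TPM in at least 8 of the 64 libraries were tested with limma on log2(TPM + 1), with the age and sex group as a block. The 8 CA1 libraries alone could meet this filter, so a gene could enter the fit through its CA1 levels. The sums also kept neighbours of the removed positions, since 262 of the 407 had an other-region position of the gene under 20 nt away. The shares of called genes are therefore not independent of the rule. Fold changes of log2(TPM + 1) understate those of low genes, and in bulk tissue fewer cells of a type and less RNA per cell cannot be told apart. Of 324 genes with a CA1-only position, 110 (33.95%) were higher in CA1 than in the mean of the other 7 regions and 10 (3.09%) lower at an adjusted p under 0.05, where 29.1% of all 6081 genes tested were higher and 1.12% lower. Against DG, 65 (20.1%) were higher and 7 (2.16%) lower, where the backgrounds were 17.5% and 0.904%. These sums still held positions listed in 1 or 2 libraries of a single region, of which CA1 had the most (53699 positions were listed in CA1 alone, and 3934 to 13646 in each other region alone). Without any position listed in a single region, an alternative chosen after seeing the data, 270 of these genes could be tested, and 42 (15.6%) were higher than in the other 7 regions and 6 (2.22%) lower, beside 11.4% and 1.66% of 3975 genes. Against DG 14 (5.19%) were then higher and 4 (1.48%) lower, beside 4.03% and 0.805%.

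The whole table was shifted toward CA1. The median log2 difference of all genes was 1.24 against the other 7 regions and 1.34 against DG, and that of the genes with a CA1-only position was 1.67 and 1.76. With the log2 number of listed positions of each library in the fit, these medians were 0.08 for all genes and 0.05 for those genes. Of the 324, 15 (4.63%) were called higher and 1 (0.309%) lower, against 2.71% and 0.773% of all genes. After quantile normalization the medians were 0.04 and 0.75, with 50 genes (15.4%) called higher and 6 (1.85%) lower, beside 7.17% and 1.36% of all genes. Without positions listed in a single region they were 0.70 and 1.04. Against DG, with the number of positions in the fit, 9 (2.78%) were higher and 3 (0.926%) lower, beside 1.60% and 0.674% of all genes. Against DG after quantile normalization 18 (5.56%) were higher and 4 (1.23%) lower, beside 2.75% and 1.02%. The part of the number of listed positions in the differences was not tested beyond these fits.

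**Figure D5:**
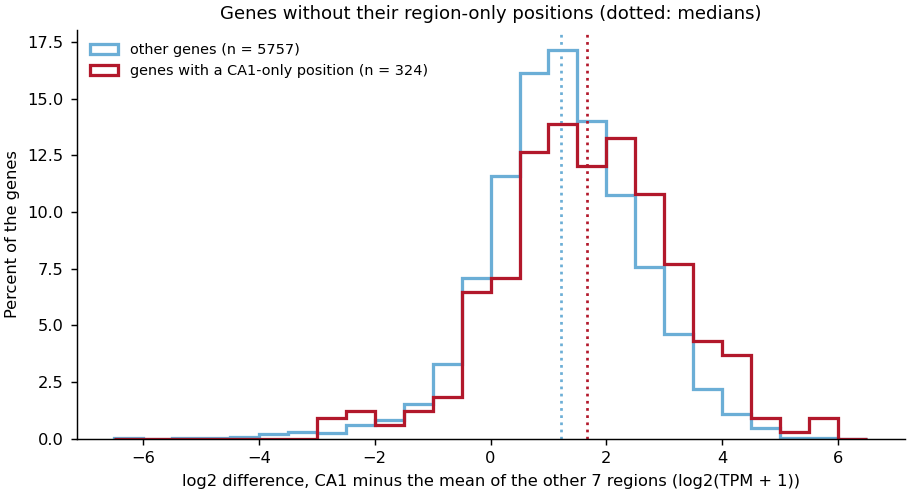
Distribution of the log2 difference between CA1 and the mean of the other 7 regions (x axis, log2(TPM + 1)) as a percent of genes (y axis) for 324 genes with a CA1-only position and 5757 other genes, both without the 504 positions that met the rule in a region. Dotted lines mark the medians, 1.67 and 1.22.

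Genes with a CA1-only position that were higher in CA1 by the widest margin included CFAP90, a cilia-associated protein, at 163 ± 101.2 TPM in CA1 (SD, n = 8) and listed in 15 of 56 other libraries, a log2 difference of 5.57 (SE 0.985, limma adjusted p = 9.4e-06). RNASEH2C, a subunit of the nuclease that removes RNA from RNA-DNA hybrids, was at 2486 ± 2544 TPM in CA1 and 206 ± 500 elsewhere, a log2 difference of 5.53 (SE 1.24). MAP7D3, a microtubule-binding protein, differed by 5.28 (SE 0.850), MOBP by 4.69 (SE 0.774), GRIA1 by 4.59 (SE 1.07) and MYO10 by 4.34 (SE 1.11). ENSMMUG00000032382, ENSMMUG00000003810 and ENSMMUG00000017617, which have no symbol, differed by 5.51, 4.95 and 4.43. MOBP, MAP7D3, ENSMMUG00000032382 and ENSMMUG00000003810 were still called with the number of listed positions in the fit (log2 differences of 4.53, 3.6, 5.64 and 4.52), and CFAP90, RNASEH2C, GRIA1, MYO10 and ENSMMUG00000017617 were not. MOBP was at 17.27 to 118.89 TPM in the CA1 libraries, at 0 to 14.48 TPM in the DG libraries, which did not overlap, and at up to 140.51 TPM in CB, 28.98 TPM in PC and 17.89 TPM in PCC, which did. Its difference rested on positions listed in a single region: without them it was 0.07 (limma adjusted p = 0.950). Without such positions CFAP90 (5.06), RNASEH2C (6.14), MAP7D3 (4.62), MYO10 (3.83), ENSMMUG00000017617 (3.18), GRIA1 (2.98) and ENSMMUG00000032382 (2.20) were still called, and ENSMMUG00000003810 did not pass the filter.

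Some of these genes were lower in CA1 at their other positions. SYP was at 863 ± 304 TPM in CA1 and 4105 ± 2935 TPM elsewhere, lower in 8 of 8 age and sex groups, a log2 difference of -2.05 (SE 0.339, limma adjusted p = 2.5e-06), and it was also lower than in DG (-2.57). SYP thus had 3 positions seen in CA1 alone while its total was lower there. RPS23, a ribosomal protein (-2.81), DYNLL1, a dynein light chain (-2.71), LENG1 (-2.69), SUPT5H, an elongation factor of RNA polymerase II (-2.41), and FKBP8 (-2.22) were the 5 with the widest decreases, each with an SE of 0.771 to 1.00. SUPT5H, RPS23, FKBP8, STMN4 and SYP were the 5 lowest against DG, from -3.28 to -2.57. With the number of listed positions in the fit none of the 5 decreases against the other 7 regions was called, and of the 5 against DG only that of SYP. Several calls were also lost when 1 age and sex group was left out. Against the other 7 regions the call was lost for RPS23 without 1F, 4M or 20F, for DYNLL1 without 1F, 1M, 4F or 20F, for LENG1 without 1F, 1M, 4F, 4M or 10M, for SUPT5H without 10M and for FKBP8 without 4F, 4M or 20M. Against DG it was lost for SUPT5H without 4M, for RPS23 without 1F, 1M, 4M or 20F, for FKBP8 without 1F, 4F, 4M or 20F and for STMN4 without 1F, 1M, 4F, 4M, 10M or 20F, while SYP was still called with each group left out. Without positions listed in a single region SUPT5H was still called in both comparisons, SYP and STMN4 against DG, and RPS23, DYNLL1, LENG1 and FKBP8 were not.

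Against DG, the genes higher in CA1 by the widest margin were RNASEH2C (6.06), MAP7D3 (5.93), RPL24, a ribosomal protein (5.88), ENSMMUG00000032382 (5.62), BEND5 (5.26), ENSMMUG00000003810 (5.07), SREK1, a splicing regulator (5.02), TSPAN15 (4.95), HELLS, a chromatin remodeller (4.88), and PODXL (4.72). PODXL and TSPAN15 were at 0 in all 8 DG libraries outside the region-only positions, at means of 50.1 and 51.2 TPM in CA1. With the number of listed positions in the fit, ENSMMUG00000032382, ENSMMUG00000003810 and PODXL of these 10 were still called. Without positions listed in a single region RNASEH2C, MAP7D3, RPL24, ENSMMUG00000032382, TSPAN15 and HELLS were called, BEND5 and SREK1 were not, and ENSMMUG00000003810 and PODXL did not pass the filter.

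Of 6 oligodendrocyte genes tested, all 6 (MAL, MOG, TF, MOBP, MBP and CNP) were higher in CA1 than in the other 7 regions, with a median log2 difference of 3.40 beside 1.24 for all genes. With quantile normalization 4 were called, and with the number of listed positions in the fit 3 (MAL, MOBP and MBP, list median 3.02), none lower in either. Without positions listed in a single region 3 were (MAL, MOG and MBP, list median 1.96). Against DG 3 of the 6 were higher (MAL, TF and MOBP), 1 after quantile normalization (MOBP) and 1 without positions listed in a single region (MAL). Mean levels did not all point to CA1: MOG was at 75.5 ± 150 TPM in DG and 33.7 ± 23.1 TPM in CA1, and CNP at 388 ± 994 TPM in CB and 79.4 ± 84.8 TPM in CA1 (SD, n = 8 each). The summed level of the 8 list genes ran from 4886 to 8273 TPM in CA1, nearly all of it MBP, from 736 to 4047 TPM in DG and from 49.2 to 7569 TPM over all other regions, the highest being a PC library. MAG, CLDN11, ERMN, OPALIN and ASPA had no position in the table. The part of these levels in the number of CA1-only positions was not tested.

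Other lists are set here beside the 29.1% of all genes that were called higher. Of 10 astrocyte genes tested 5 were higher in CA1 (SLC1A2, GFAP, AQP4, CLU and GLUL; list median 1.32), of 11 GABAergic genes 3 (SST, CCK and NPY; 0.94), of 10 glutamatergic genes 8 (GRIA1, CAMK2A, CAMK2B and NEUROD6 among them; 2.81) and of 4 microglial genes 2 (TYROBP and CSF1R; 1.50). With the number of listed positions in the fit, 1 astrocyte gene (SLC1A2) and no GABAergic, glutamatergic or microglial gene was called. Of 15 synaptic vesicle genes 4 were higher (SYN2, SYT1, RIMS1 and PCLO) and 2 lower (SNCB and SYP), and those 2 were also lower with the number of positions in the fit. The summed level of this list was lower in CA1, at 2480 to 3857 TPM, than in the other regions, at 4096 to 30413 TPM, without overlap. Gene by gene the list was not lower throughout, with a median log2 difference of 0.79 beside 1.24 for all genes. Of 22 postsynaptic genes 7 were higher, of 20 microtubule and axon genes 10 were higher and 1 (GAP43) lower, and of 28 RNA-binding genes 10 were higher, and of these calls only that of GAP43 held with the number of positions in the fit.

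The last comparisons asked whether the CA1-only positions differed with age or sex. CA1-only positions listed per library numbered 189 in 1F, 179 in 1M, 174 in 4F, 200 in 4M, 107 in 10F, 121 in 10M, 226 in 20F and 129 in 20M. As a share of listed positions they made up 1.52% ± 0.103 at 1 and 4 yr and 1.38% ± 0.281 at 10 and 20 yr (SD, n = 4 each, exact permutation p = 0.486, adjusted over 4 tests 0.686). Males had 1.51% ± 0.099 and females 1.39% ± 0.288 (exact permutation p = 0.6, adjusted 0.686). The share lay between 1.39% and 1.63% in 7 libraries and was 0.955% in 20F, and without 20F both differences turned round, to 0.123 and -0.0545 percentage points.

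Their summed level ran from 2196 TPM in 20F to 4018 TPM in 1M. The log2 sum was 11.6 ± 0.251 at 1 and 4 yr and 11.5 ± 0.351 at 10 and 20 yr (SD, n = 4 each, exact permutation p = 0.686, adjusted 0.686), and 11.8 ± 0.234 in males and 11.4 ± 0.25 in females (exact permutation p = 0.143, adjusted 0.571). The age difference turned round without 1M (0.0218) or 20F (0.186). The smallest p that 4 against 4 allows is 0.0286, and the ages overlapped for both measures. Of the 407, 357 were listed in both age groups and 365 in both sexes, 35 at 1 and 4 yr alone, 15 at 10 and 20 yr alone, 26 in females alone and 16 in males alone. Since 335 of the 407 were in exactly 3 libraries, a position can fall in 1 group alone without any difference between groups. The same counts were not made for the other CA1 positions, so these are no result on age or sex.

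Position by position, none of the 407 was called between 10-20 yr and 1-4 yr (limma on log2(TPM + 1), smallest adjusted p = 0.716), and 0% of all 4270 positions tested were called. At an unadjusted p under 0.05 there were 2 higher and 5 lower at 10-20 yr, beside 68 and 100 of all 4270. The median log2 change was -0.43 over the 407 and -0.12 over all positions, with a median SE of 1.45, so that a change of several-fold in one position was not detectable with 8 libraries. The lowest unadjusted p values belonged to GPM6B and ENSMMUG00000003135, both listed at 1 or 4 yr alone.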

How the data were processed

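CAGE-seq libraries were made by the authors from polyadenylated RNA of 8 brain regions. Reads were trimmed with the FASTX-Toolkit and aligned with TopHat2 to the macaque genome MMUL 1.0. The 5′ ends of reads were taken as start sites, and neighbouring ones were clustered sample by sample. The deposited table gives each cluster's position and its TPM, a normalized number of tags (RPM: scaled to library size), with no value above 0 under 1. No tag counts were used. The fitted step between low values gave the tags behind 1 TPM. Depth and the floor at 1 TPM limit every absence: a position at 0 may have had a few tags.

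The members and gene lists were chosen with earlier results of these data known. Positions were placed against the gene's start and end in the same table. Symbols were taken from a table of gene IDs and covered 282 of the 375 genes. Named were the 10 positions in most CA1 libraries, the 10 with the highest mean, the 8 genes with most CA1-only positions, up to 4 genes of each list, the 10 widest increases and 5 widest decreases per gene fit, and the positions nearest the thresholds.

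Tests were exact sign-flip and permutation tests over libraries (Python 3.11.15, NumPy 2.4.6, pandas 2.3.3) and limma 3.58.1 (R 4.3.3) with trend on log2(TPM + 1), Benjamini-Hochberg adjusted over all features tested. The scripts for the fits were tested on simulated data. Libraries of the same age and sex came from the same animals in all regions, so age and sex group entered the gene fit as a block. The deviations of CA1 libraries from their region's mean had mean correlations of -0.004 to 0.0139 with same-group libraries of other regions. P-values measure the spread between libraries, each of a pair of animals. In all sign-flip tests of the place in the gene, joined or not, the libraries of a region shared the positions compared. The p-values of those tests therefore leave out the spread between positions. No 2 libraries held identical values. Alternatives covered joining, thresholds, pseudocount, filters, scaling, the block and leaving out each library. Sequences at the positions were not used here. Some named genes are not reported here.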

Additional observations from a re-analysis of the deposited data

Results flagged for a closer look

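Values that stood apart from the other 7 CA1 libraries by Dixon's ratio of gap to range were found in 6 of 21 quantities. Chance flags about 1 group in 20, but 15 of the 21 were levels of positions picked for their CA1 values, so that rate is no measure for them. The library 20F had the lowest share of CA1-only positions, 0.955% of its listed positions, and the widest excess of CA1-only positions within 500 nt of the start, 17.4 percentage points. Single libraries held most of the signal of 4 named positions: CNP at 118.61 TPM in 1M, RNF114 at 69.81 TPM in 10M, ENSMMUG00000018919 at 114.6 TPM in 4M and GPM6B at 157.21 TPM in 1M.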

How the results depend on the processing

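The number of CA1-only positions, 407, came to 2934 with at least 2 CA1 libraries and 72 with at least 4. It was 32 among the 500 highest positions of each library, with lower values set to 0. With values under 2 TPM set to 0 it was 336, and after joining 560. With 1 CA1 library left out it ran from 227 (without 20F) to 336 (without 10F). It fell by over 1.5 times without 1F (256), 1M (270), 4M (252) or 20F. The difference within 500 nt of the start, 5.75 points, was -11.7 after joining, 1.31 within 100 nt (exact p = 0.383) and 4.74 among positions in exactly 3 CA1 libraries, an alternative chosen after seeing the data, and 0.468 to 8.55 with 1 library left out; the call was lost without 1F, 4M or 20F. The difference in the final 10% was 2.12 after joining and -8.10 to -6.46 with 1 library left out. After joining, the difference near the start between CA1 and other regions turned round for DG (44.4), PFC (8.84), PCC (45.0), TC (-18.1) and OC (12.5). Joined region-only positions then numbered 1 in DG, 8 in PFC, 1 in PCC, 6 in TC and 5 in OC. The age difference in share was -0.223 to 0.123, the sex difference -0.0545 to 0.160, the age difference in log2 sum -0.199 to 0.186 (0.0218 without 1M and 0.186 without 20F) and the sex difference 0.111 to 0.563 with 1 library left out. None of these 4 was called under any alternative.

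Genes with a CA1-only position called in either direction, 120 against the other 7 regions and 72 against DG, came to 56 and 22 with quantile normalization and 16 and 12 with the number of listed positions in the fit, and 48 and 18 without any position listed in a single region (chosen after seeing the data). The shares for these fits are given above beside those of all genes. The called genes came to 77 to 104 and 37 to 70 with 1 age and sex group left out, lowest without 20F (37 against DG; 47 without 1M, 44 without 4F and 42 without 4M). Without 20F 22.8% were higher against the other 7 regions and 10.9% against DG, beside 19.7% and 9.97% of all genes. Against DG 13.8%, 12.7% and 12.8% were higher without 1M, 4F and 4M, beside 12.4%, 12.2% and 10.0% of all genes. Without the block for age and sex group the called genes came to 117 and 65 (33.0% and 18.5% higher, beside 28.6% and 17.0% of all genes). Of 30 named gene differences 28 were still called then. With the number of listed positions in the fit 8 of the 30 were. Without positions listed in a single region 18 were, 9 were not and 3 could not be fitted. No named gene changed direction. None of the 407 positions was called with age under any alternative, with 2 to 12 at an unadjusted p under 0.05. The cause of these changes was not tested. The floor of the values limits the rule itself, since a position under 1 TPM is at 0 in every library.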
